A study of Mus musculus with 112 samples.

Results

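The data concern 150 microarray probes that fell most in the liver of mice given tesaglitazar, among probes that were also above background in every brain array. Of 45281 probes on the array, 12193 had a detection p-value under 0.05 on all 75 brain arrays and on 9 saline liver arrays. The members were chosen by measured values: they are the 150 of these with the most negative difference between the mean of 8 tesaglitazar and the mean of those 9 saline liver arrays, on quantile-normalised log2 raw signal. The fall under tesaglitazar in liver is therefore the criterion of choice and is described here without a test. Of the members, 15 carried no gene symbol and the rest carried 1 each, and together they covered 112 genes.

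The study gave male C57BL/6J mice, whose age the labels do not state, one of 4 treatments for 8 days, which the labels describe both as given by mouth and as injected. Fenofibrate was given at 150 mg/kg, bezafibrate at 75 mg/kg, tesaglitazar at 1.5 mg/kg, and the controls received saline. The labels describe fenofibrate as an agonist of PPARα, tesaglitazar as a dual agonist of PPARα and PPARγ, and bezafibrate as a pan-PPAR agonist, and the agonists were suspended in saline with a detergent. Liver, prefrontal cortex (PFC) and amygdala were profiled on Illumina bead arrays, 112 arrays in all, 9 or 10 of them for every treatment and tissue. The doses differ between agonists, so each comparison below is between treatments as given and not between compounds at matched doses. Per array, 38.1 to 42.7% of probes were above background in liver, 44 to 49.8% in PFC and 46.4 to 50.6% in amygdala, and the number of arrays limits the precision of every comparison.

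The PPARs are nuclear receptors that bind fatty acids and their derivatives and act on DNA as partners of the retinoid X receptor. PPARα is abundant in hepatocytes, where its activation raises genes of fatty acid uptake and oxidation, and it is also known to lower genes of amino acid breakdown, complement and the acute phase response. The probes here report transcripts that were detectable in brain as well as in liver.

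A pair of liver libraries went against their labels on these probes. The library labelled saline 4 lay closer to the tesaglitazar mean than to the saline mean on 150 of 150 members, and the library labelled tesaglitazar 6 lay closer to the saline mean on 147 of 150. For Cyp4f14 the library labelled saline 4 read 8.29 on the log2 signal scale and that labelled tesaglitazar 6 read 12.08. The rule that chose the members leaves both out, and so do the values below unless stated, which leaves 9 saline, 8 tesaglitazar, 9 fenofibrate and 9 bezafibrate arrays in liver. Where a count changed by more than 1.5 times with both libraries as labelled, it is given beside the result.

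Across the 150 members, the median log2 difference from the saline mean was -1.85 to -1.13 on single tesaglitazar arrays. It was -1.02 to -0.52 on the 9 fenofibrate arrays, -0.23 to -0.04 on the 9 bezafibrate arrays and -0.09 to 0.10 on the 9 saline arrays. No fenofibrate array lay within the range of the saline, bezafibrate or tesaglitazar arrays on this measure, while the ranges of bezafibrate and saline overlapped. Of the tesaglitazar arrays, those of mice 8, 10 and 29 read -1.21, -1.13 and -1.28, and those of the other 5 mice lay between -1.85 and -1.73. The SD between arrays was larger under tesaglitazar than under saline for 128 of 150 members, with a median SD of 0.38 on the log2 scale against 0.20. On the PFC arrays the same median lay between -0.15 and 0.10, and on the amygdala arrays between -0.12 and 0.13, whatever the treatment.

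**Figure D1:**
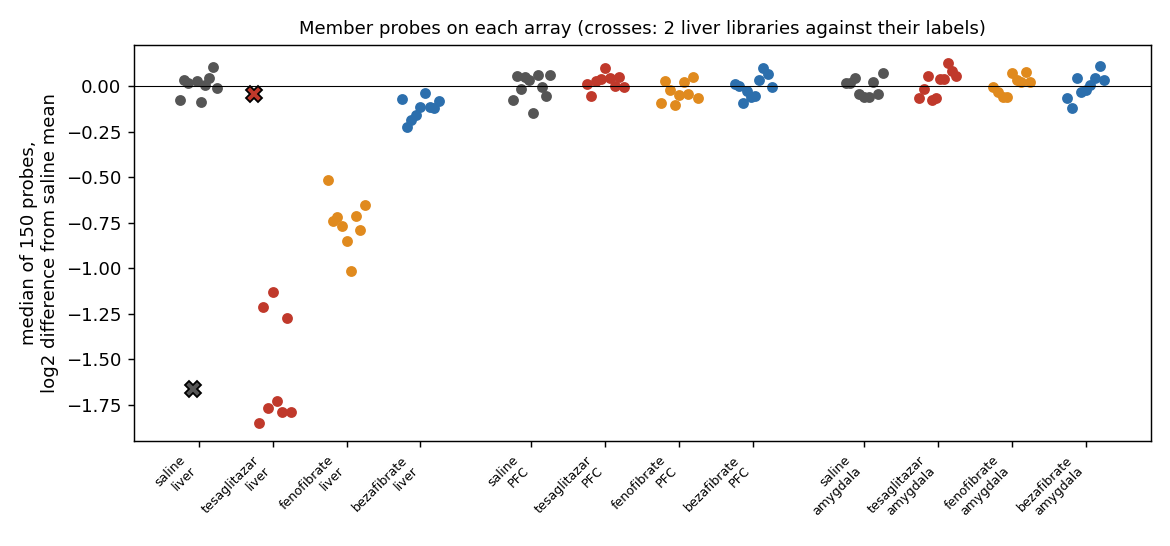
Median log2 difference of the 150 member probes from the saline mean of the same tissue, 1 point per array, by treatment and tissue. Liver arrays of tesaglitazar and fenofibrate lie below 0, brain arrays lie between -0.15 and 0.13, and the crosses mark the libraries labelled saline 4 (-1.66) and tesaglitazar 6 (-0.04).

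The size of the fall was large by selection. Under tesaglitazar 148 members were at least 2-fold and 37 at least 4-fold lower than under saline, with a median log2 difference of -1.56. All 8 tesaglitazar arrays lay below all 9 saline arrays for 140 members, against 6.91% of the 19984 probes tested in liver, and nothing is read from this count because these arrays chose the members. Of 99 further probes on the array for the same genes, 68 were tested in liver. All 68 had a mean below saline under tesaglitazar, against 52.1% of all probes tested, 55 of them by more than 0.5 on the log2 scale. The arrays that chose these genes also gave this count, so it is no independent support for the fall. The last members inside the limit were Herpud1 at -0.98, Ang at -0.97 and Shfl at -0.97 on the scale of the rule, and the first probes outside were Retreg1 at -0.97, an unnamed probe at -0.97 and Igf1 at -0.97. The edge of the list is thus a choice of size and marks no gap in the values.

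Promoter windows are shown for 7 of the members described below: the leading member Cyp4f14, a pair of cytokine and interferon genes, and 4 genes of carbohydrate and amino acid metabolism. RefSeq windows of 300 bases, from 250 before to 50 after the transcript start on build GRCm38.p6, were found for 88 of the 112 genes, 128 windows in all because some genes have several starts. Capitals mark letters that match the core of an interferon-stimulated response element (TTTC repeated with 2 free bases between) in Ifitm3 and Il1rap, and CACGTG, an E-box bound by factors of the basic helix-loop-helix class, in Khk, Ppp1r3c, Cbs and Ass1, on either strand. The window of Cyp4f14 holds neither set of letters and has no capitals. The windows lie at chr17:32917307-32917606 on the minus strand for Cyp4f14, chr7:141010695-141010994 on the minus strand for Ifitm3, chr16:26581455-26581754 on the plus strand for Il1rap, chr5:30921309-30921608 on the plus strand for Khk, chr19:36736555-36736854 on the minus strand for Ppp1r3c, chr17:31637156-31637455 on the minus strand for Cbs and chr2:31470020-31470319 on the plus strand for Ass1.
Cyp4f14: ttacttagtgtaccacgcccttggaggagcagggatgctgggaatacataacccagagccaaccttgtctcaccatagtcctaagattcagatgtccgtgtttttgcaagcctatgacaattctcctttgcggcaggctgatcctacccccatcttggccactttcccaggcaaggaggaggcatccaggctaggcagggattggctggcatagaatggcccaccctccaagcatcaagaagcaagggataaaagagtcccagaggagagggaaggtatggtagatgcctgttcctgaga
Ifitm3: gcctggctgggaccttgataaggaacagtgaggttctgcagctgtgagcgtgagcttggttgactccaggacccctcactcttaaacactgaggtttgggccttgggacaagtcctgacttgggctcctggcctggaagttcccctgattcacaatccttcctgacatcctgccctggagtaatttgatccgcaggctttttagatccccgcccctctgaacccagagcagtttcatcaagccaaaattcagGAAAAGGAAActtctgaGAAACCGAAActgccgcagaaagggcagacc
Il1rap: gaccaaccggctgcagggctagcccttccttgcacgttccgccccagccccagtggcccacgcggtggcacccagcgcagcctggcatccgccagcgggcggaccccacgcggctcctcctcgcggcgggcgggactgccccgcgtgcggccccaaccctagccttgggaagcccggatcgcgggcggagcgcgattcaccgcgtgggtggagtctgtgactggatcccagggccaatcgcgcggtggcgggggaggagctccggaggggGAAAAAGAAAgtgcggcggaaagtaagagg
Khk: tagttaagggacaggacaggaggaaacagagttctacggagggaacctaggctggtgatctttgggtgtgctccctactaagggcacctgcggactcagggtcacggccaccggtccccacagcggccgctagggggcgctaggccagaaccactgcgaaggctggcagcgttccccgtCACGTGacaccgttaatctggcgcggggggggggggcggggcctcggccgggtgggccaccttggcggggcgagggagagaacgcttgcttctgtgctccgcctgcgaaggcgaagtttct
Ppp1r3c: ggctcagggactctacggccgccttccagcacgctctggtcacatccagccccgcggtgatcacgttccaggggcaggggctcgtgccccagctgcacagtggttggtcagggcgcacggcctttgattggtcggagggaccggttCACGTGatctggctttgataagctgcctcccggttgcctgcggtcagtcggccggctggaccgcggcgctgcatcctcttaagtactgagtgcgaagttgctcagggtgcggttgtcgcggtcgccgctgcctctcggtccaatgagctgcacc
Cbs: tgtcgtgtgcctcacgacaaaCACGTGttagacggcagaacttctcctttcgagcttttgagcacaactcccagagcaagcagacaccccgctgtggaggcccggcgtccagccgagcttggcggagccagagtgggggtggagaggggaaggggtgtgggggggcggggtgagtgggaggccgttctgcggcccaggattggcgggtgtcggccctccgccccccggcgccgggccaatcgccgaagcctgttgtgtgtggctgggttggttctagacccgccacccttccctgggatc
Ass1: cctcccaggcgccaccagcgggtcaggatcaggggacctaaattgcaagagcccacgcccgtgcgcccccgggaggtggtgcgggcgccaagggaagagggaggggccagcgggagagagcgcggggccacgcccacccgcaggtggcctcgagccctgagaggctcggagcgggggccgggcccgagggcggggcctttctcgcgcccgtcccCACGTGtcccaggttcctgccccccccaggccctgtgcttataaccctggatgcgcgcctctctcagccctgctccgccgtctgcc

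CACGTG was found in 17 and the interferon-stimulated element in 7 of the 88 member genes with a window. All windows shown but that of Cyp4f14 hold a match, so they do not represent the members. CACGTG stood in 13.3% of the 128 member windows and in 7.15% of all 32851 windows. The interferon-stimulated element stood in 5.47% of member windows and in 3.44% of all windows, and the 7 member genes with it were Cd59a, Cyp4v3, Ece1, Ifitm3, Il1rap, Irf2 and Vtn. The PPAR response element (AGGTCA repeated in the same direction with 1 free base between), searched on both strands, was in none of the member windows and in 0.0396% of all windows, which says only that these letters are not there. TATAAA stood in 7.81% of member windows and in 13.6% of all windows. A match of letters is a description of the window and not evidence that a factor binds there.

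Enzymes and transporters of lipids, steroids and drugs are described first. Cyp4f14, a cytochrome P450 of the family that hydroxylates leukotrienes and fatty acids at the end of the chain, read 11.95 at the lowest, 12.19 at the median and 12.34 at the highest of 9 saline arrays, and 7.12, 7.68 and 9.30 over 8 tesaglitazar arrays. It read 8.87, 10.16 and 10.48 over 9 fenofibrate arrays and 11.40, 11.84 and 12.11 over 9 bezafibrate arrays. Saline and bezafibrate arrays were high with overlapping ranges, fenofibrate arrays lay below both without overlap, and the lowest fenofibrate array lay within the tesaglitazar range. The mean was 16.8-fold lower under tesaglitazar and 4.63-fold lower under fenofibrate than under saline (log2 difference -2.21, SE 0.23, limma adjusted p = 1.28e-09). Fenofibrate against bezafibrate, which uses none of the arrays that chose the members, gave -1.90 (SE 0.23, limma adjusted p = 6.72e-08).

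Nnmt, which methylates nicotinamide at the expense of S-adenosylmethionine, was represented by 2 members. The brighter probe read 10.93, 11.48 and 12.35 under saline and 6.53, 7.03 and 8.73 under tesaglitazar, as lowest, median and highest array. It read 8.75, 9.24 and 9.75 under fenofibrate and 10.57, 11.51 and 12.37 under bezafibrate. Bezafibrate arrays covered the saline range, and the fenofibrate arrays lay below both, with the highest tesaglitazar array just under the lowest fenofibrate array. The fenofibrate to bezafibrate difference was -2.32 (SE 0.26, limma adjusted p = 8e-09), a 5.01-fold lower mean, and the difference of bezafibrate from saline was 0.04 with a 95% interval of -0.48 to 0.57.

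Hsd11b1, which regenerates active corticosterone from its inactive ketone, had 3 members whose differences under tesaglitazar lay within 0.03 of each other on the log2 scale. On the first of them saline arrays ranged from 13.67 to 13.92 with a median of 13.71, tesaglitazar arrays from 10.30 to 11.93 with a median of 10.65, fenofibrate arrays from 11.68 to 12.70 with a median of 12.31 and bezafibrate arrays from 13.22 to 13.77 with a median of 13.44. Fenofibrate arrays did not overlap saline or bezafibrate, and the highest tesaglitazar array lay within the fenofibrate range. The 3 probes differed between fenofibrate and bezafibrate by -1.18 to -1.14 (for the first, SE 0.17, limma adjusted p = 2.04e-06).

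Several other members of these pathways were lower under fenofibrate than under bezafibrate as well. Sult1a1, a sulfotransferase of phenols and drugs, had a saline median of 12.47, a tesaglitazar median of 9.51 and a range of 8.04 to 10.89 under tesaglitazar, against 11.07 to 11.81 under fenofibrate. Its fenofibrate to bezafibrate difference was -1.17 (SE 0.22, limma adjusted p = 7.37e-05), and no tesaglitazar array reached the fenofibrate range. Slco1a4, an uptake transporter of organic anions and bile acids, read 7.42 to 8.84 under saline, 4.39 to 5.50 under tesaglitazar, 5.47 to 6.94 under fenofibrate and 8.02 to 9.22 under bezafibrate. It was detected on 7 of 8 tesaglitazar arrays, and fenofibrate against bezafibrate gave -2.30 (SE 0.18, limma adjusted p = 2.63e-12). Cyp7b1, an oxysterol hydroxylase of the alternative pathway of bile acid synthesis, had overlapping fenofibrate (10.68 to 12.16) and saline (11.80 to 13.31) ranges and a fenofibrate to bezafibrate difference of -0.84 (SE 0.26, limma adjusted p = 0.0153). The 2 member probes of Gstp1, a glutathione transferase whose sequence is shared in large part with Gstp2, gave -0.99 and -0.89 in the same comparison, and a further Gstp1 probe gave -1.22 (limma adjusted p = 1.33e-06). Of the list of drug and glutathione metabolism, 8 of the 36 genes tested were lower and 10 were higher under fenofibrate than under bezafibrate. The median was 0.10, against 10.5% of all probes lower and 10.4% higher, so the list as a whole was not lower.

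**Figure D2:**
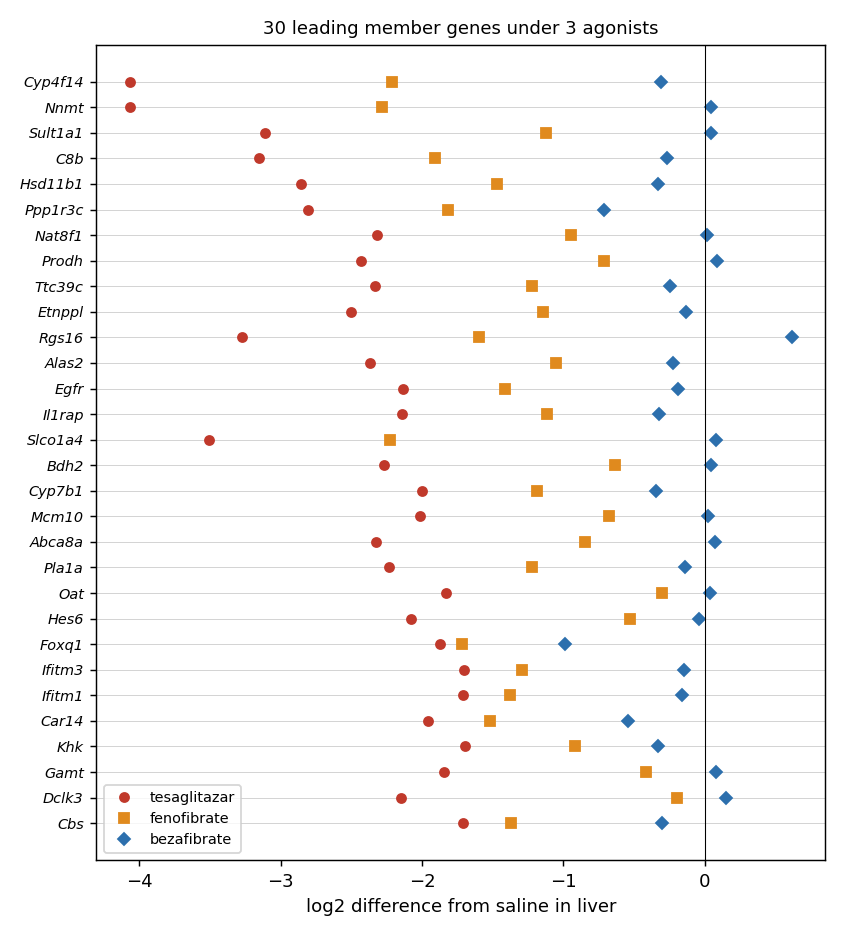
Log2 difference from saline in liver under each agonist for the 30 leading member genes, by their first member probe, in the order of the rule. In these genes the fenofibrate squares lie between the tesaglitazar circles, which chose the genes, and 0, and most bezafibrate diamonds lie near 0.

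Genes of amino acid breakdown and of one-carbon metabolism formed the next group. Cbs, which joins homocysteine and serine in the path to cysteine, read 10.00, 10.44 and 10.93 under saline, 8.24, 8.70 and 9.06 under tesaglitazar, 8.76, 9.00 and 9.20 under fenofibrate and 9.77, 10.07 and 10.62 under bezafibrate on one of its 2 probes. Tesaglitazar and fenofibrate arrays overlapped each other and lay below all saline and bezafibrate arrays. Fenofibrate against bezafibrate gave -1.11 (SE 0.12, limma adjusted p = 6.32e-09), and the mean difference from saline was -1.68 under tesaglitazar and -1.39 under fenofibrate. Ass1, the urea cycle enzyme argininosuccinate synthase, read 13.36 to 14.08 under saline, 11.58 to 12.50 under tesaglitazar, 12.59 to 13.05 under fenofibrate and 13.25 to 14.09 under bezafibrate, as lowest and highest array. Tesaglitazar arrays lay below all fenofibrate arrays, and these lay below all saline and bezafibrate arrays, which overlapped. Its fenofibrate to bezafibrate difference was -0.84 (SE 0.11, limma adjusted p = 1.89e-07).

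Prodh, which starts proline oxidation, read 10.25, 10.74 and 10.91 under saline, 7.42, 8.06 and 9.31 under tesaglitazar, 9.53, 9.92 and 10.39 under fenofibrate and 10.42, 10.70 and 11.04 under bezafibrate. Its fenofibrate to bezafibrate difference was -0.80 (SE 0.15, limma adjusted p = 0.000151), a 1.74-fold lower mean, beside a 5.40-fold lower mean under tesaglitazar than under saline. Oat, ornithine aminotransferase, read 13.22, 13.55 and 13.72 under saline, 10.79, 11.27 and 13.23 under tesaglitazar, 13.01, 13.27 and 13.48 under fenofibrate and 13.05, 13.57 and 13.84 under bezafibrate. The tesaglitazar arrays were widely spread, the highest of them touched the saline range, and the fenofibrate to bezafibrate difference of -0.34 did not pass the test (95% interval -0.77 to 0.09, limma adjusted p = 0.29).

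Further members of this kind passed the fenofibrate to bezafibrate test. They included Cdo1, cysteine dioxygenase, at -0.68 (SE 0.13), Etnppl, ethanolamine-phosphate phospho-lyase, at -1.01 (SE 0.21), Aldh1l1, a folate dehydrogenase, at -0.63 (SE 0.11), and Gamt, the last enzyme of creatine synthesis, at -0.49 (SE 0.16). Of the list of amino acid catabolism and the urea cycle, 17 of the 33 genes tested were lower and 1 was higher, with a median of -0.28, and 4 of its genes (Ass1, Cbs, Oat and Prodh) were members. The median over all probes tested was -0.01, and 10.5% of them were lower.

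Among genes of carbohydrate metabolism, Ppp1r3c, which targets protein phosphatase 1 to glycogen, fell most under tesaglitazar (-2.81). It read 10.59, 10.97 and 11.20 under saline, 7.41, 8.01 and 9.51 under tesaglitazar, 8.44, 9.18 and 9.68 under fenofibrate and 9.58, 10.08 and 10.93 under bezafibrate. Fenofibrate arrays lay below all saline arrays and overlapped the tesaglitazar range, and bezafibrate arrays spanned from the fenofibrate to the saline range. The fenofibrate to bezafibrate difference was -1.10 (SE 0.21, limma adjusted p = 9.3e-05), and bezafibrate lay below saline by 0.72 on the log2 scale (SE 0.21, limma adjusted p = 0.0462). Khk, fructokinase, read 11.75 to 12.74 under saline, 10.28 to 11.04 under tesaglitazar, 11.06 to 11.65 under fenofibrate and 11.43 to 12.28 under bezafibrate. Its fenofibrate to bezafibrate difference was -0.59 (SE 0.12, limma adjusted p = 0.000248), with tesaglitazar arrays below all others. Tkfc, a later enzyme of fructose breakdown, differed by -0.59 (SE 0.14), and Ugp2, which makes UDP-glucose, by -0.56 (SE 0.10). The 3 member probes of the amylases Amy1 and Amy2a5, genes with near-identical copies whose signals these probes may share, differed by -0.61 to -0.36. A dimmer Amy2a5 probe gave -0.26 and did not pass (limma adjusted p = 0.2). In the list of glucose and glycogen metabolism 7 of 21 genes tested were lower and 2 were higher, with a median of -0.16, against 10.5% of all probes lower.

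**Figure D3:**
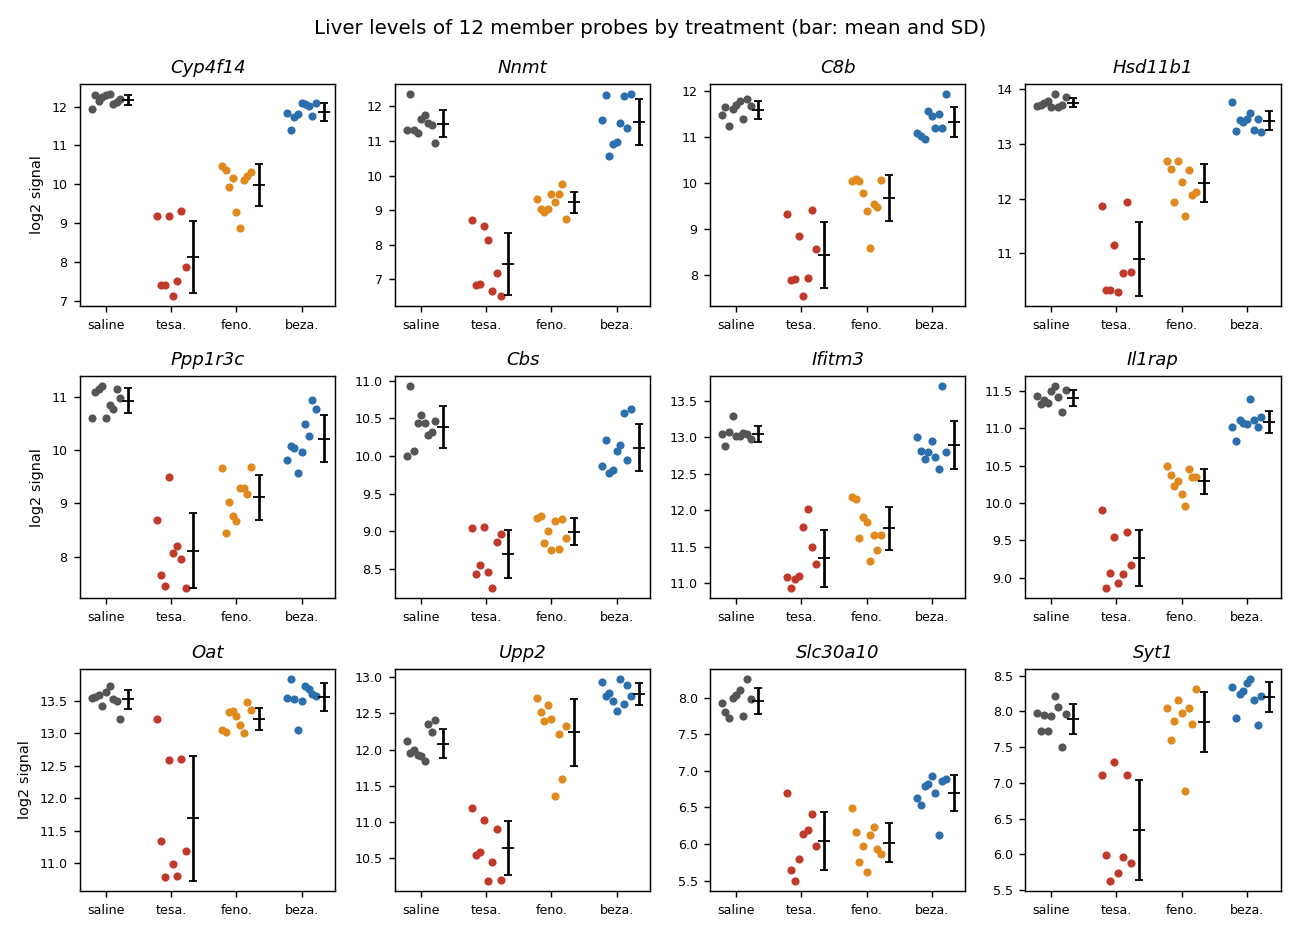
Log2 signal in liver of 12 member probes, 1 point per array, by treatment, with the mean and SD beside each group. Oat, Upp2 and Syt1 sit near the saline level under fenofibrate, while Slc30a10 lies below saline under all 3 agonists.

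Secreted and surface proteins of complement and matrix were a further group. C8b, the beta chain of complement component C8 of the membrane attack complex, read 11.23, 11.64 and 11.82 under saline, 7.56, 8.25 and 9.42 under tesaglitazar, 8.59, 9.78 and 10.09 under fenofibrate and 10.94, 11.19 and 11.93 under bezafibrate. Fenofibrate arrays lay below all bezafibrate and saline arrays, and the fenofibrate array of mouse 37 lay apart from the rest of its group at 8.59. The fenofibrate to bezafibrate difference was -1.65 (SE 0.20, limma adjusted p = 5.51e-08). The gamma chain C8g differed by -0.31 (SE 0.10, limma adjusted p = 0.0191), complement factor C2 by -0.64 (SE 0.11), vitronectin (Vtn) by -0.71 (SE 0.08), fibronectin (Fn1) by -0.53 (SE 0.08) and the complement inhibitor Cd59a by -0.34 (SE 0.09). Of the list of complement, coagulation and acute phase genes, 22 of the 38 tested were lower and none was higher, with a median of -0.44 in this comparison, against 10.5% of all probes lower. C8b was the one member on that list, which does not hold the members C8g, C2, Vtn, Fn1 and Cd59a.

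Some members act in cytokine and interferon signalling, and they were named here after their values had been seen. Il1rap, the accessory protein of the interleukin-1 receptor, had 3 members that fell by 2.10 to 2.14 under tesaglitazar. One of them read 11.22, 11.41 and 11.56 under saline, 8.86, 9.11 and 9.90 under tesaglitazar, 9.96, 10.35 and 10.49 under fenofibrate and 10.83, 11.07 and 11.38 under bezafibrate. Tesaglitazar, fenofibrate and the pair of saline and bezafibrate formed 3 bands without overlap, and fenofibrate against bezafibrate gave -0.80 (SE 0.10, limma adjusted p = 9.66e-08). Of 3 further Il1rap probes, a pair near background, with saline levels of 5.08 and 5.0, gave -0.34 and -0.32. Il6ra, the interleukin-6 receptor chain, differed by -0.82 (SE 0.16).

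Ifitm3, an interferon-induced membrane protein that hinders the entry of enveloped viruses, read 12.88, 13.04 and 13.29 under saline, 10.93, 11.18 and 12.02 under tesaglitazar, 11.31, 11.67 and 12.18 under fenofibrate and 12.57, 12.80 and 13.70 under bezafibrate. Tesaglitazar and fenofibrate arrays overlapped and lay below all saline and bezafibrate arrays, with a fenofibrate to bezafibrate difference of -1.14 (SE 0.13, limma adjusted p = 1.48e-08). Its relative Ifitm1, whose sequence is similar, gave -1.21 (SE 0.11), but a dimmer Ifitm1 probe that met the detection rule gave -0.40 and fell by 0.27 under tesaglitazar on the log2 scale. Irf2, a transcription factor of the interferon response, gave -0.69 (SE 0.09), Ly6e -0.96 (SE 0.14), Gsdmd, the pore protein of pyroptosis, -0.74 and -0.80 on its 2 member probes and -0.59 on a further probe, and the chemokine Cxcl12 -0.38 to -0.28 on 3 member probes, of which 2 passed.

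The probes of Irf1, a relative of Irf2, disagreed. The member read 8.20, 8.66 and 8.91 under saline, 6.51, 6.91 and 7.46 under tesaglitazar, 7.01, 7.57 and 8.03 under fenofibrate and 7.83, 8.32 and 9.29 under bezafibrate, and gave a fenofibrate to bezafibrate difference of -0.87 (SE 0.14, limma adjusted p = 6.58e-06). A brighter probe of Irf1 that is no member, with a saline mean of 10.23, fell by 0.50 under tesaglitazar on the log2 scale and gave -0.20 for fenofibrate against bezafibrate (limma adjusted p = 0.365). In the list of interferon response and antigen presentation 6 of 31 genes tested were lower and 1 was higher, with a median of -0.20, against 10.5% of all probes lower and 10.4% higher.

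Among growth factor and signalling genes, 2 probes of Egfr, the epidermal growth factor receptor, were members. The brighter member read 11.32, 12.03 and 12.88 under saline, 8.54, 9.77 and 11.13 under tesaglitazar, 9.58, 10.72 and 11.37 under fenofibrate and 10.96, 11.80 and 12.50 under bezafibrate. Its ranges were wide, with saline and fenofibrate overlapping by a narrow margin, and fenofibrate against bezafibrate gave -1.22 (SE 0.27, limma adjusted p = 0.000853). The 3 other Egfr probes tested in liver, which are no members, gave -1.70, -1.69 and -0.96 in that comparison. Ghr, the growth hormone receptor, had 2 member probes. The brighter read 11.77 to 12.20 under saline, 10.72 to 11.10 under tesaglitazar, 11.22 to 11.58 under fenofibrate and 11.65 to 12.09 under bezafibrate. On this probe the groups overlapped only between saline and bezafibrate, and the fenofibrate to bezafibrate difference was -0.43 (SE 0.07, limma adjusted p = 8.54e-06). The dimmer Ghr probe varied more, with 8.62 to 9.67 under saline and 8.10 to 8.63 under fenofibrate, and gave -0.70 (SE 0.14, limma adjusted p = 0.000333). Igf1, a target gene of that receptor in liver, was the third probe outside the limit of the rule.

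Rgs16, a brake on G-protein signalling, varied widely within groups. It read 7.19, 8.90 and 9.76 under saline, 4.49, 5.36 and 7.45 under tesaglitazar, 6.07, 7.06 and 9.30 under fenofibrate and 7.65, 10.09 and 10.99 under bezafibrate. Neighbouring groups overlapped throughout, and the fenofibrate to bezafibrate difference was -2.22 (SE 0.47, limma adjusted p = 0.000417). The phosphatase Dusp1 differed by -0.95 (SE 0.25, limma adjusted p = 0.00397). Bcl6, a transcriptional repressor, varied as widely and did not pass, with 7.0 to 10.50 under fenofibrate, 7.44 to 10.97 under bezafibrate and a difference of 0.31 (95% interval -0.76 to 1.37, limma adjusted p = 0.751). The forkhead factor Foxq1 likewise did not pass this test (-0.73, SE 0.35, limma adjusted p = 0.149).

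A few members left the common order in their differences from saline. Upp2, a uridine phosphorylase of liver, was lower under tesaglitazar and higher under bezafibrate on its 3 member probes. The brightest of these ranged from 11.84 to 12.41 under saline with a mean of 12.08, and it read 10.19, 10.57 and 11.20 under tesaglitazar, 11.36, 12.40 and 12.71 under fenofibrate and 12.54, 12.74 and 12.98 under bezafibrate. All bezafibrate arrays lay above all saline arrays (0.68, SE 0.14, limma adjusted p = 0.00345), while fenofibrate overlapped saline (0.16, SE 0.14, limma adjusted p = 0.452). Fenofibrate against bezafibrate gave -0.53 on this probe (SE 0.14, limma adjusted p = 0.00569), the direction of most members. The 3 member probes of Upp2 were those that rose under bezafibrate, 3 of 150 against 1.52% of all probes. Thrsp, a lipogenic protein of liver induced by thyroid hormone, read 9.14 to 11.08 under saline, 8.46 to 10.33 under tesaglitazar, 10.04 to 11.72 under fenofibrate and 9.63 to 11.99 under bezafibrate. Its groups overlapped, and neither fenofibrate (0.43, SE 0.28) nor bezafibrate (0.37, SE 0.28) passed the test against saline. A dim Thrsp probe that is no member gave -0.49 for fenofibrate against bezafibrate (limma adjusted p = 0.0131), where the member gave 0.06.

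Slc30a10, a manganese exporter of liver and brain, was below saline under all 3 agonists. It read 7.72, 7.98 and 8.26 under saline, 5.50, 6.06 and 6.69 under tesaglitazar, 5.62, 5.98 and 6.49 under fenofibrate and 6.13, 6.79 and 6.92 under bezafibrate. No agonist array reached the saline range, and the means of tesaglitazar (6.04) and fenofibrate (6.02) were nearly equal. The bezafibrate difference was -1.25 (SE 0.13, limma adjusted p = 1.09e-08), the most negative of any member. A dimmer probe of Slc30a10 that also met the detection rule, with a saline mean of 5.63, fell by 0.36 under tesaglitazar on the log2 scale and gave 0.11 for fenofibrate against bezafibrate (limma adjusted p = 0.43), so that the probes disagree in size.

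Although chosen for a fall in liver, 26 members were brighter in the saline brain regions than in saline liver, 12 of them at least 2-fold, and 124 were brighter in liver, with tissues normalised apart. Syt1, the calcium sensor of synaptic vesicle release, read 13.85, 13.93 and 14.10 in saline PFC and 7.51, 7.95 and 8.22 in saline liver. It read 5.63, 5.98 and 7.29 under tesaglitazar, 6.89, 7.97 and 8.31 under fenofibrate and 7.81, 8.24 and 8.46 under bezafibrate in liver. Tesaglitazar arrays lay below all saline arrays, and fenofibrate covered the saline range with a difference of -0.04 (SE 0.19, limma adjusted p = 0.90). Mmd2, a membrane protein, read 11.48 to 11.75 in saline PFC and 5.67 to 9.09 in saline liver, was detected on 2 of 8 tesaglitazar arrays and 7 of 9 fenofibrate arrays, and differed by -1.84 between fenofibrate and bezafibrate (SE 0.35, limma adjusted p = 0.000107). The growth protein Nrn1 was about as bright in liver (saline mean 12.08) as in PFC (12.29) and differed by -0.61 (SE 0.09), Cadps2 by -0.94 (SE 0.12) and the kinase Aatk by -0.83 (SE 0.23).

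Cell type markers were examined beside these results, since fewer cells of a type and less RNA per cell cannot be told apart in bulk tissue. Of the neuronal markers that were bright in brain, Stmn2 and Slc17a7 were detected on 0 liver arrays and read 4.26 and 4.27 under saline. The probes of Snap25, Nefl and Gad1 were detected on 0 PFC arrays, so they say nothing of liver. The mean of the 2 neuronal markers tested in liver, Syt1 (a member) and Rbfox3, was 6.29 to 6.91 under saline, 5.18 to 6.19 under tesaglitazar, 6.09 to 6.80 under fenofibrate and 6.57 to 6.84 under bezafibrate. Over 4 of 5 astrocyte markers, with Aldh1l1 a member, the mean was 7.23 to 7.52 under saline and 6.92 to 7.11 under tesaglitazar. On both lists the tesaglitazar arrays lay below all saline arrays, but each list holds a member, chosen for its fall. From the saline to the tesaglitazar mean, Syt1 went from 7.9 to 6.34 and Aldh1l1 from 11.55 to 10.12. Of the markers that are no members, Rbfox3 went from 5.11 to 4.83 and Aqp4 from 5.76 to 5.53. Slc1a3 went from 4.54 to 4.55 and Gja1 from 7.73 to 7.84. Of the exocrine pancreas markers Cpa1, Prss2 and Ctrb1 were each detected on 1 liver array, at 4.24 to 4.31 under saline. Amy2a5 and Cela1 were detected on all 35, and their mean was 9.77 to 10.53 under saline and 9 to 9.72 under tesaglitazar. Of the adipocyte markers Plin1 was detected on 0 liver arrays, while Cidec, a lipid droplet protein, read 4.59 under saline and 9.36 under tesaglitazar. The blood list moved with the members: over 3 of its 6 genes tested, the mean log2 level was 11.52 to 12.22 on saline arrays, 9.94 to 11.19 on tesaglitazar, 11.14 to 11.58 on fenofibrate and 10.96 to 11.99 on bezafibrate arrays. Of these genes Alas2, the first enzyme of haem synthesis in red cell precursors, is a member (-2.37 under tesaglitazar), and Hbb-bt went from 12.79 to 12.23 and Hba-a1 from 12.41 to 11.76. Of the hepatocyte markers Apoa1, Apoa2, Ttr and Cyp2e1 read 14.60 to 14.69 in saline liver and 14.56 to 14.69 under tesaglitazar. From the saline to the tesaglitazar mean, Cps1 went from 13.76 to 12.24 and Serpina1a from 12.49 to 11.3. Alb went from 6.85 to 5.81, Apob from 11.17 to 10.76 and the dim Fgb probe from 4.84 to 4.52. Over 9 of 10 hepatocyte markers the mean log2 level was 11.83 to 12.18 under saline, 11.25 to 11.58 under tesaglitazar, 11.43 to 11.66 under fenofibrate and 11.74 to 11.96 under bezafibrate, and 3 of the 9 were lower under fenofibrate than under bezafibrate. Over 8 of 11 macrophage markers the ranges of all 4 groups overlapped. Their part in the members' differences was not tested. The share of probes above background on liver arrays was 39.6 to 41.5% under saline and 40 to 42.7% under tesaglitazar.

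The comparison of fenofibrate with bezafibrate in liver asks whether the fall extends to treatments that played no part in choosing the members. Of 150 members, all but 25 were lower under fenofibrate (83.3%) and none was higher, against 10.5% of all 19984 probes lower (limma, adjusted p under 0.05). The median difference was -0.64, against -0.01 over all probes tested. All 9 fenofibrate arrays lay below all 9 bezafibrate arrays for 62 members, against 1.74% of all probes. The lowest values among members past the test were those of Nnmt, Slco1a4, Rgs16, Cyp4f14 and Mmd2, and the highest, Cxcl12, Slc66a2, C8g, Cd59a, Amy2a5 and Shfl, lay between -0.37 and -0.30. Within mice numbered 1 to 20, 76 members passed, against 7.49% of all probes in either direction. Within mice 21 to 40, 108 passed, against 15.7%.

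Probe by probe, the difference of fenofibrate from bezafibrate followed that of tesaglitazar from saline. The correlation was 0.81 across the 150 members and 0.83 across all 12193 probes that met the detection rule. It is given as a description, since probes of a gene and co-regulated genes are not independent and all liver arrays were normalised together.

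**Figure D4:**
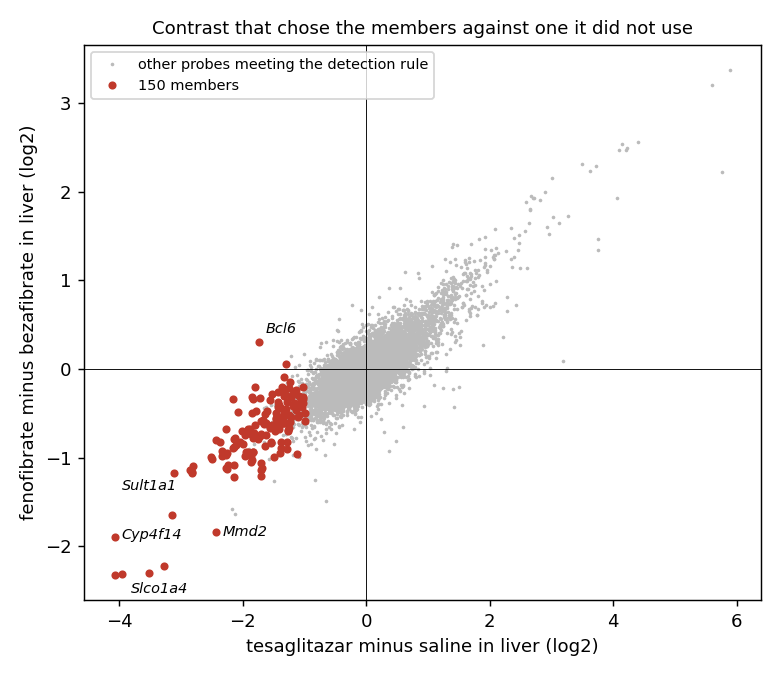
Log2 difference of fenofibrate minus bezafibrate against that of tesaglitazar minus saline in liver, 1 point per probe, for the 150 members and the other probes of the 12193 that met the detection rule. The members lie at the left by choice, 148 of them below 0 on the vertical axis, with Bcl6 and Thrsp above it.

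Fenofibrate and bezafibrate were also set against saline, but these comparisons share the 9 saline arrays that chose the members, so that their counts are described and not taken as independent. Under fenofibrate 132 members were lower and none was higher, against 15.2% of all probes lower (limma, adjusted p under 0.05), with a median of -0.78, and 46 of them were at least 2-fold lower. The count fell to 85 with the libraries labelled saline 4 and tesaglitazar 6 kept as labelled. The fenofibrate mean lay above the tesaglitazar mean for all but 1 member, with a median difference of 0.81, an order that the choice of members by low tesaglitazar values favours. Under bezafibrate 11 members were lower (limma), against 1.65% of all probes, with a median of -0.12. They were Slc30a10, Ppp1r3c, 1 probe of Il1rap, the carbonic anhydrase Car14 (-0.54, SE 0.12), the syndecan Sdc2 (-0.25, SE 0.07), Aph1a, Shroom1, Slc66a2, Gm11837, Shfl and an unnamed probe. With both libraries as labelled, 1 member was lower and 3 were higher under bezafibrate, and the median was 0.06. With median centring 2 were lower, and within mice 21 to 40 alone 1 was.

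In the brain no member was higher past the threshold in the fits as reported. In PFC under tesaglitazar 0 of 150 members passed, as did 0% of the 23079 probes tested (limma). At an unadjusted p under 0.05, 15 members (10%) and 1493 probes (6.47%) passed. The median difference was 0.02, and the 95% intervals of 142 of 150 members stayed inside -0.5 to 0.5, beside a median difference of -1.56 in liver. Under bezafibrate in PFC no member and 0.013% of all probes passed in limma. At an unadjusted p under 0.05, 3 members (2%) passed there, against 4.26% of all probes.

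Under fenofibrate in PFC 8 members were lower, against 3.48% of all probes lower, and none was higher (limma, adjusted p under 0.05). The 8 were 1 of the 2 member probes of Cbs, and Cdo1, Ass1, Gsta4, Zap70, Cyp7b1 and 2 unnamed probes. The Cbs probe that passed read 6.08, 6.47 and 6.64 over 10 saline arrays and 5.93, 6.07 and 6.36 over 9 fenofibrate arrays in PFC. The ranges overlapped, with a difference of -0.31 (SE 0.08, limma adjusted p = 0.0193). The other Cbs member probe gave -0.155 and did not pass (SE 0.074, limma adjusted p = 0.209). Ass1 read 7.77, 8.17 and 8.35 under saline and 7.07, 7.84 and 8.08 under fenofibrate, again with overlap (-0.40, SE 0.11, limma adjusted p = 0.0256). Cdo1 read 8.36, 8.88 and 9.24 under saline and 8.12, 8.47 and 8.93 under fenofibrate (-0.36, SE 0.10, limma adjusted p = 0.0255). With median centring of the arrays in place of quantile normalisation 0 members passed. The share of members is 5.33%, close to the background, and none of the 8 passed in amygdala, where Ass1 and Cdo1 had differences of 0.35 and 0.36.

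In amygdala no member passed under tesaglitazar, fenofibrate or bezafibrate, and 0% of the 23803 probes tested passed in each of these limma comparisons. At an unadjusted p under 0.05, 34 members passed under tesaglitazar (22.7%, against 6.36% of all probes), 41 under fenofibrate (27.3%, against 8.67%) and 16 under bezafibrate (10.7%, against 5.11%). Within mice 21 to 40 alone, 12 members passed under tesaglitazar after adjustment (6 higher and 6 lower), as did 4.11% of all probes. The medians of the members were 0.04, 0.01 and 0.01. The 95% interval reached beyond 0.5 in size for 35, 42 and 25 members.

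**Figure D5:**
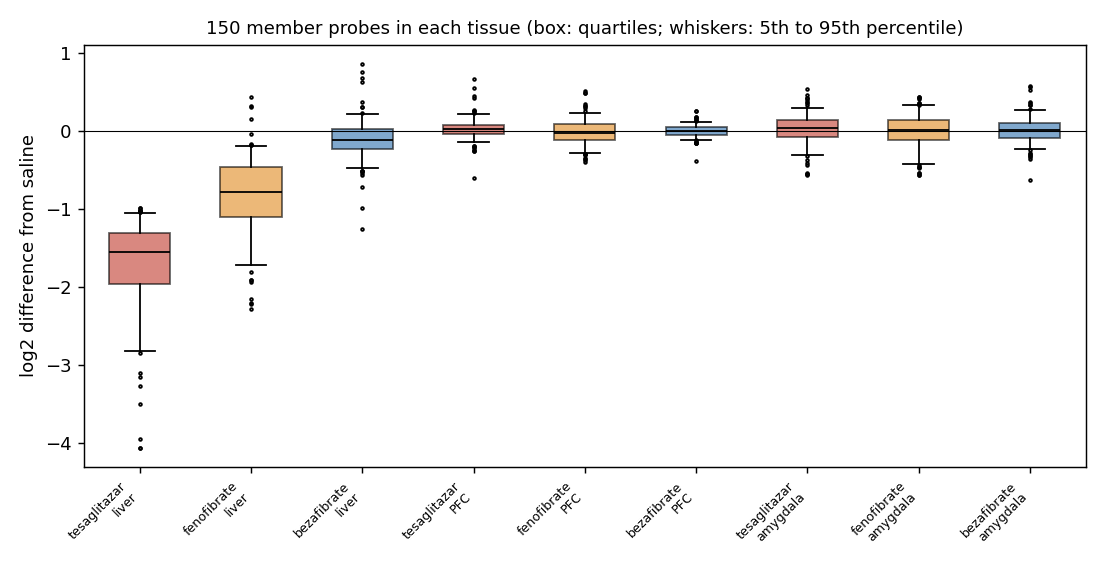
Log2 differences from saline of the 150 member probes under each agonist in liver, PFC and amygdala, as boxes of the quartiles with whiskers from the 5th to the 95th percentile. The medians are -1.56, -0.78 and -0.12 in liver and lie between -0.03 and 0.04 in both brain regions.

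Whether the response differs between tissues was tested directly for fenofibrate against bezafibrate, as liver minus the mean of both brain regions over 110 arrays. The difference was more negative in liver for 118 of 150 members and more positive for none, against 6.03% of 27695 probes (limma, adjusted p under 0.05). The median of this difference was -0.64. With a replicate block for the mouse, which pairs the tissues of an animal, all but 35 members passed.

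Like other probes that met the detection rule, the members were split between the brain regions. Under saline 41 of 150 (27.3%) were higher in PFC than in amygdala, against 20% of 25460 probes (limma, adjusted p under 0.05). In the same test 36 (24%) were lower, against 20.3%. Among the 12193 probes that met the detection rule, 23.4% were higher and 22.7% lower, and the shares of the members lay close to these. With the replicate block of paired mice 40 members were higher and 37 lower. This split depended on the scaling: it was 13 higher and 68 lower with median centring of each array, and 12 higher and 90 lower on the deposited normalised values, in which tissues keep different medians. The differences most in favour of PFC were those of Cxcl12 (1.20 on one of its probes), a pair of unnamed probes at 1.05, and Shroom1 at 1.01. Those most in favour of amygdala were Amy1 (-1.19 and -0.87), Abca8a (-1.18), Ttc39c (-1.03 and -0.95) and Aspdh (-0.80).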

How the data were processed

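Total RNA was hybridised to Illumina mouse bead arrays, 112 of which were used, and 8 array columns that match no sample label were not used. The authors deposited a raw intensity per probe with a detection p-value, and a log2 table normalised by them; lumi is named in the submitters' processing notes without a version. From the raw intensity, background was corrected with limma's normexp from detection p-values (offset 16), followed by quantile normalisation within each tissue and log2. Probes with a detection p-value under 0.05 on at least 9 arrays of a tissue were tested with limma 3.58.1 (lmFit, eBayes, Benjamini-Hochberg over all probes tested) in R 4.3.3, and figures were drawn with matplotlib 3.10.9 in Python 3.11.15. Scripts were tested on simulated data.

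As the rule for the members states, liver libraries saline 4 and tesaglitazar 6, by their labels, were set aside. The members and gene lists were chosen with earlier results of these data known. Genes were named by rank in the rule and by the fixed gene lists, and others by their role after their values had been seen. The same mouse number in different tissues was taken as the same mouse, and it served as a replicate block in the interaction and the comparison of brain regions. Of all probes, 34885 carried 1 gene symbol, 18 several and 10378 none. Alternatives were other background corrections, scalings, filters, array weights, the libraries as labelled and the mouse numbers in 2 ranges.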

Additional observations from a re-analysis of the deposited data

Results flagged for a closer look

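In 9 of 124 groups of arrays tested for a single array far from the rest of its group, 1 array lay apart, and chance flags about 1 in 20 such groups. In liver under fenofibrate, mouse 37 was low for C8b, at 8.59 against 9.40 to 10.09 in the others, and for Syt1, at 6.89 against 7.59 to 8.31. Saline mouse 2 was low for Cyp7b1, at 11.80 against 12.55 to 13.31, and high for Mmd2, at 9.09 against 5.67 to 7.23. Bezafibrate mouse 34 was high for Ifitm3, at 13.70 against 12.57 to 13.01, and for Irf1, at 9.29 against 7.83 to 8.54. Saline mouse 22 was high for Ifitm3, at 13.29 against 12.88 to 13.08. Bezafibrate mouse 15 was low for Oat, at 13.05 against 13.50 to 13.84, and bezafibrate mouse 33 was low for Slc30a10, at 6.13 against 6.54 to 6.92. The difference between fenofibrate and bezafibrate also differed between liver and brain for 118 of 150 members, tested as an interaction in limma.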

How the results depend on the processing

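Of 114 alternative counts of members, 97 lay within 1.5 times the reported count or were 0 where the reported count was 0. The 114 include the counts of members that the rule would choose again. With both libraries kept as labelled, 85 members passed for fenofibrate against saline, and 4 passed for bezafibrate against saline (3 higher and 1 lower, against 14 as reported, 3 higher and 11 lower), where the median turned from -0.12 to 0.06. For bezafibrate against saline 5 passed with median centring (2 lower), 8 without the detection filter (5 lower), 6 in mice 1 to 20 (4 lower) and 1 in mice 21 to 40, which was lower. For fenofibrate against bezafibrate 76 passed in mice 1 to 20, against 7.49% of all probes. In PFC under fenofibrate 0 passed with median centring, 5 with array weights, 2 with the compared groups alone, and 1 in each range of mouse numbers. In PFC under tesaglitazar 1 passed with median centring. In amygdala 12 passed under tesaglitazar in mice 21 to 40 (6 higher and 6 lower), against 4.11% of all probes. Under fenofibrate in amygdala 3 passed in mice 1 to 20, against 5.71% of all probes, and 2 in mice 21 to 40, against 0.529%. Under bezafibrate in amygdala 2 passed in mice 1 to 20, against 3.4% of all probes. With the replicate block, all but 35 members passed the interaction and 77 passed the comparison of brain regions. The cause was not tested for any of these. Under other settings the rule would replace 7 to 36 of the 150 members. The precision is limited by 8 to 10 arrays a group.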
